A study of Homo sapiens with 4 samples.

Results

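YAP-W1W2, a form of the coactivator YAP with both WW domains mutated, was compared with the empty vector in MCF10A, an established line of human breast epithelium that does not form tumours. The comparison used the 2 arrays labelled for these cultures, of 4 arrays in the series, and described 19775 genes, each by its brightest probe set with a single gene symbol. The vector cells had been infected with retrovirus made from empty pQCXIH, and the YAP-W1W2 cells with retrovirus made from pQCXIH carrying that mutant. The other 2 arrays, with wild-type YAP (YAP-WT) or the mutant YAP-S94A in the same vector, are given beside the values where they help to place them. All cultures grew in DMEM/F12 with horse serum, epidermal growth factor (EGF), hydrocortisone, insulin and cholera toxin, and all kept the cells' own YAP1 gene. Each group had a single array, so no difference could be set against replicates and no test was possible. Genes were counted by a fixed change of 2-fold, and "higher" and "lower" below mean at least that change from vector unless a value is given. How many clones or cells each culture came from is not given in the sources used here.

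YAP is a transcriptional coactivator without a DNA-binding domain of its own. The kinases of the Hippo pathway, LATS1 and LATS2, phosphorylate it and keep it out of the nucleus. When free of that brake it enters the nucleus and binds the TEAD factors, which carry it to enhancers and promoters of genes for growth, matrix and adhesion. Its WW domains are small folds that grip proline-rich PPxY motifs in partner proteins, among them LATS kinases, angiomotins, PTPN14, SMADs, RUNX factors and ERBB4. The S94A change lies in the separate region that binds TEAD.

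Intensities below 72.9, the 40th percentile of all values, were set to that floor before log2 was taken, and where 1 of the arrays lay at it the fold is written as "at least". The 12759 genes whose mean over the 4 arrays was at least 113.6, the median probe set, are called measured, and 7016 dimmer genes were not counted. The 3 YAP1 probe sets stood 0.15, 0.19 and 0.52 (log2) above vector in YAP-W1W2. Whether they lie within the construct is not known, so they do not check the label. The control probe sets moved too. The hybridization controls BioB, BioC and BioD had medians of −1.12, −0.98 and −0.55 (log2) relative to vector, and the 4 probe sets for Cre lay between −0.65 and 0.12. The controls for actin and GAPDH stood at 0.85 and 0.46. The ratio of the 3′ to the 5′ control went from 1.16 in vector to 0.964 in YAP-W1W2 for actin and from 0.961 to 1.02 for GAPDH. The part of these shifts in the results below was not tested.

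Of the measured genes 19.8% changed, with 1460 higher (11.4%) and 1072 lower (8.40%) in YAP-W1W2. These shares are the background for every count of list members below. The median gene stood at 0.10 (log2), and 53.0% of genes lay within 0.5 of it. At 4-fold 229 genes were higher and 233 lower, and at 16-fold 13 and 15. After centring on the median gene 1225 genes were higher and 1280 lower, so the share of changed genes that were higher moved from 57.7% to 48.9%, and to 47.9% after intensity-dependent centring. With measured genes divided by brightness into 4 equal groups, lower genes made up 11.7% of the dimmest group and 4.01% of the brightest, and higher genes 15.7% and 10.1%. Among the 602 higher genes with several measured probe sets, all probe sets passed 2-fold in 244, and all lay in the same direction in 495. Of the 441 such lower genes these counts were 180 and 360. The 2 probe sets of a gene, where it had exactly 2, differed by a median of 0.45 (log2), with a 90th percentile of 1.32. These gaps lie within the same 2 arrays, so they hold no variation between cultures or between arrays.

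**Figure D1:**
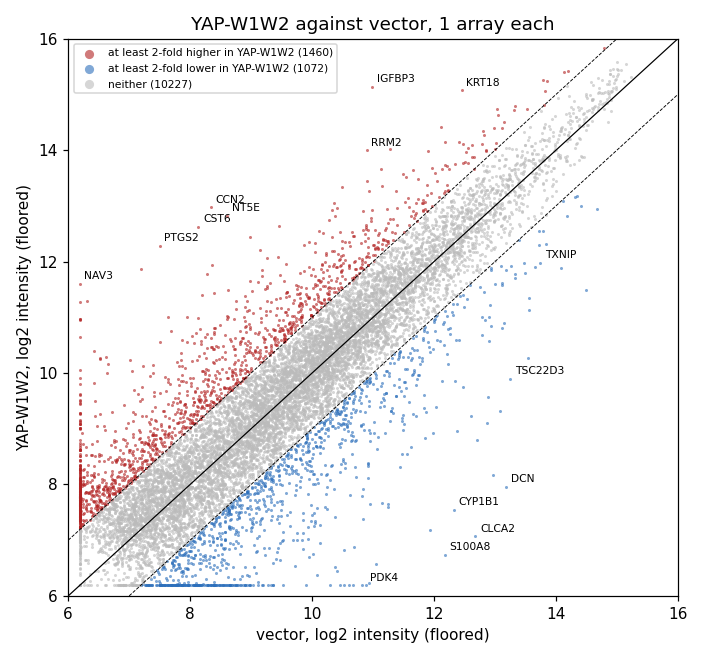
Floored log2 intensity of the 12759 measured genes on the vector array (horizontal) and the YAP-W1W2 array (vertical), 1 array each, with the solid line at no change and dashed lines at 2-fold. The 1460 higher genes (red) and 1072 lower genes (blue) lie outside the dashed lines, and genes at the floor of 72.9 line up at the left and bottom edges.

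**Figure D2:**
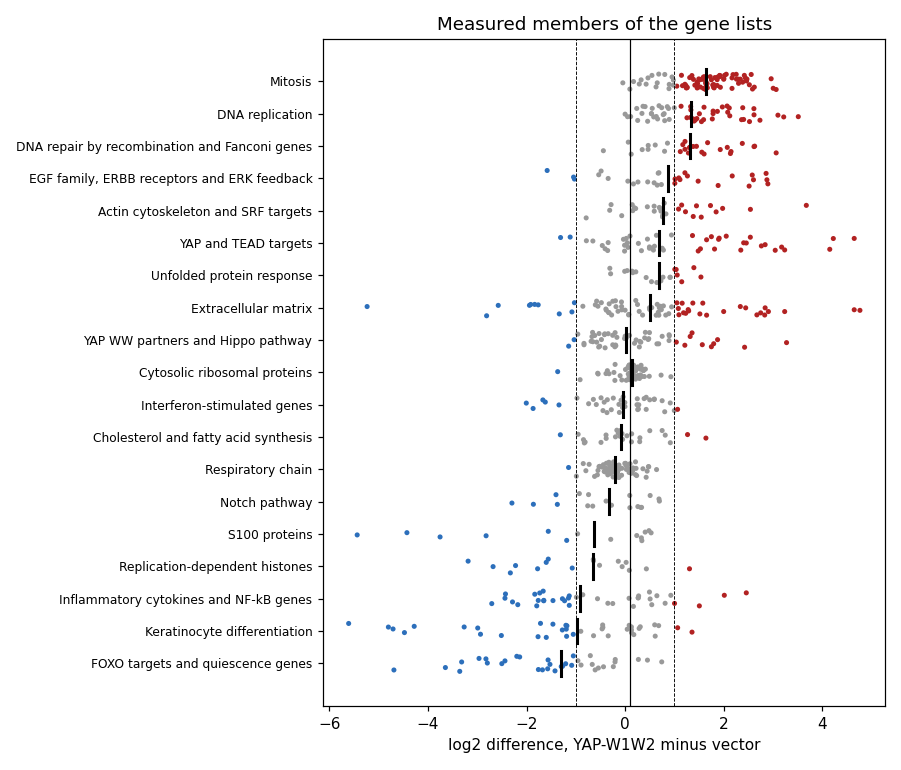
Log2 difference, YAP-W1W2 minus vector, of every measured member of 19 gene lists; each dot is a gene, thick bars are list medians, the thin solid line is the median gene and dashed lines mark 2-fold. Mitosis, replication and repair genes lie to the right (medians 1.63, 1.33 and 1.30), FOXO and keratinocyte genes to the left (−1.30 and −0.98), and ribosomal protein genes near the centre (0.14).

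Among genes whose probe sets all passed 2-fold, several of the largest gains were in genes of the cell surface, its matrix and the cell cycle. ITGA2, the alpha subunit of the collagen receptor integrin, read 309 on the vector array and 3518 on YAP-W1W2, an 11.4-fold difference, with 370 on YAP-WT and 980 on YAP-S94A. Only the YAP-W1W2 array was far above the rest for this gene. GJA5, which encodes the gap junction protein connexin 40, went from 505 to 5594 and was nearly as high on YAP-WT at 4682. CXADR, a tight junction adhesion molecule also used by viruses for entry, went from 616 to 4312, against 1403 on YAP-WT and 902 on YAP-S94A. SKP2, the F-box protein that targets the CDK inhibitor p27 for degradation, went from 1316 to 8483, a 6.45-fold difference. The endocytic adaptor DAB2 was 8.46-fold higher and the elastic fibre protein FBN2 6.72-fold, while on YAP-S94A DAB2 read 111, below its vector value of 205. CTH, the enzyme that makes cysteine from cystathionine, was 6.67-fold higher, and the actin-binding ENC1 5.82-fold.

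Some genes did not exceed the floor on the vector array and were far above it in YAP-W1W2. STXBP6, which binds SNARE proteins, read 16 in vector and 2489 in YAP-W1W2, at least 34.1-fold higher, with 360 on YAP-WT and 16 on YAP-S94A. SV2B, a synaptic vesicle glycoprotein, was at least 27.4-fold higher and the long non-coding RNA BCAR4 at least 27.5-fold; neither exceeded the floor on YAP-S94A. The chloride channel family member CLIC5 was at least 22.1-fold higher, at 1608 against 1432 on YAP-WT. EPHB1, a receptor for ephrins, stood apart in that it was below the floor on the other 3 arrays and read 890 on YAP-W1W2, at least 12.2-fold higher. KRT33A, a hair keratin, read 1069 on YAP-W1W2, 294 on YAP-S94A and 39 on YAP-WT, and close hair keratin relatives may share its probes.

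Losses among the genes with agreeing probe sets included enzymes, adhesion molecules and receptors. MAOA, which breaks down monoamines, went from 7457 to 549.5 and was 13.6-fold lower, with 672 on YAP-S94A and 1948 on YAP-WT. SULF2, a heparan sulfate endosulfatase, went from 1827 to 166 and GPC6, a heparan sulfate proteoglycan of the surface, from 1078 to 83. TGFBR3, the co-receptor betaglycan, was 8.04-fold lower, the growth factor receptor FGFR3 6.59-fold and the atypical small GTPase RHOU 6.22-fold. The receptor tyrosine kinase ROS1 went from 1468 to 113, and the estrogen sulfotransferase SULT1E1 from 1126 to 123. Of these 8 genes, RHOU was as low on YAP-S94A, and the rest were lowest on the YAP-W1W2 array. MME (the surface peptidase CD10), CALB1 (a calcium-binding protein) and the acute-phase serpin SERPINA3 were below the floor on YAP-W1W2 and at least 20.1-, 22.3- and 24.8-fold lower.

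Many known YAP and TEAD targets were higher. Of 54 listed targets, 49 had a usable probe set and 48 were measured; 21 of these (43.8%) were higher and 2 lower, against 11.4% and 8.40% of all measured genes. The list draws in part on YAP expression in cells such as these and is not independent evidence of direction. Its median difference from vector was 0.69 (log2) in YAP-W1W2, beside 1.22 in YAP-WT and 0.32 in YAP-S94A. These comparisons share the vector array.

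Of 13 measured secreted targets 8 were higher and 1 lower, and their median of 1.89 lay above the medians of the surface and intracellular targets. CCN2, the matricellular protein CTGF that is the usual reporter of YAP and TEAD activity, read 323 in vector and 8075 in YAP-W1W2, a log2 difference of 4.64, with 5523 on YAP-WT and 636 on YAP-S94A. Both vector and YAP-S94A were low and the other 2 arrays high. Its promoter is printed because it holds 3 copies of the TEAD core motif GGAATG; capitals mark them, and both strands were searched in the 250 bases before the RefSeq start (GRCh38.p14, chr6:131951373-131951622, minus strand, sequence 5′ to 3′ in the sense of the gene).
CCN2: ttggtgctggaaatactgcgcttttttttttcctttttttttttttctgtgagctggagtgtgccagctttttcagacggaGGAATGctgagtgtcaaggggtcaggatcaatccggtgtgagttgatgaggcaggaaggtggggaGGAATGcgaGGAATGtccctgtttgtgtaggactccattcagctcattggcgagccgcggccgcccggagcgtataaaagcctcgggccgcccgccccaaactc
The copies begin 169, 104 and 95 bases before the start. GGAATG occurred on either strand in 10 of the 35 measured targets with a promoter in the table (28.6%), in 9.66% of all measured genes and in 11.9% of all promoters. Its share was 10.7% in all higher genes and 8.94% in all lower genes, both near that of all measured genes. Among the other lists searched it occurred in 8 of 31 keratinocyte differentiation genes (25.8%), in 16.3% of replication, 12.9% of FOXO and 11.4% of mitosis genes, and in 3 of 30 inflammatory genes. Of those 10 targets 5 were higher (CCN2, THBS1, CCL20, DDAH1 and ANKRD1) and 5 were neither higher nor lower (TGFB2, PTPN14, CPA4, DKK1 and CAVIN2), so the motif did not separate the members that changed from those that did not.

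Other secreted targets were high with both WW-mutant and wild-type YAP. IGFBP3, which binds insulin-like growth factors, went from 2035 to 36099 and read 19124 on YAP-WT but 1712 on YAP-S94A. BDNF, a neurotrophin, went from 335 to 2762, and INHBA, which forms activin A, from 167 to 1136, with 589.6 and 209 on YAP-S94A. FSTL1, a follistatin-like glycoprotein, was 3.72-fold higher and CCN1, the matricellular relative of CCN2, 3.14-fold. CCL20, a chemokine for CCR6-bearing cells, was 5.49-fold higher at 7270.3, above its YAP-WT value of 3794. THBS1, thrombospondin 1, stood 7.15-fold above vector by the brightest of its probe sets, although these lay in both directions. WNT5A, a non-canonical Wnt ligand, went the other way: it read 1976 in vector and 912 in YAP-W1W2, 2.17-fold below vector, with 5462 on YAP-WT and 191 on YAP-S94A. TGFB2, which read 985 on YAP-WT, was at 328 on YAP-W1W2 and 315 in vector.

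Receptor and surface targets had 5 of 9 higher and none lower (0 of 9), with a median of 1.53. NT5E, the ecto-nucleotidase CD73, read 389 in vector and 7258 in YAP-W1W2, above the 1989.7 of YAP-WT and the 4114 of YAP-S94A. F3, the coagulation initiator tissue factor, went from 2248 to 13058 and the TWEAK receptor TNFRSF12A from 4488 to 12923. ITGB2, the leukocyte integrin subunit, went from 221 to 1169.7, well short of its 5244 on YAP-WT. AXL, a receptor tyrosine kinase often used as a YAP target, read 1411 in vector, 5432 in YAP-WT and 1023 in YAP-W1W2, and its probe sets lay in both directions. EGFR, at −0.35 (log2), also had probe sets in both directions.

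Intracellular targets had 8 of 26 higher and 1 lower. TGM2, a protein-crosslinking transglutaminase, went from 128 to 1209, close to the 1316 of YAP-WT. The kinase scaffold AKAP12 was 5.08-fold higher, the RhoGAP DLC1 3.51-fold, the mitotic survivin gene BIRC5 4.14-fold, the glucosylceramide synthase UGCG 2.79-fold and the AP-1 factor FOSL1 2.58-fold. ANKRD1, a nuclear ankyrin repeat protein, did not exceed the floor in vector and read 273, a gain of at least 3.75-fold. The Hippo feedback genes AMOTL2, LATS2 and PTPN14 stood at 0.75, 0.49 and 0.02 (log2), the last 2 with disagreeing probe sets, and the LATS-binding AJUBA at −0.66. The RNA-binding RBMS3 was 2.48-fold lower, with disagreeing probe sets.

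**Figure D3:**
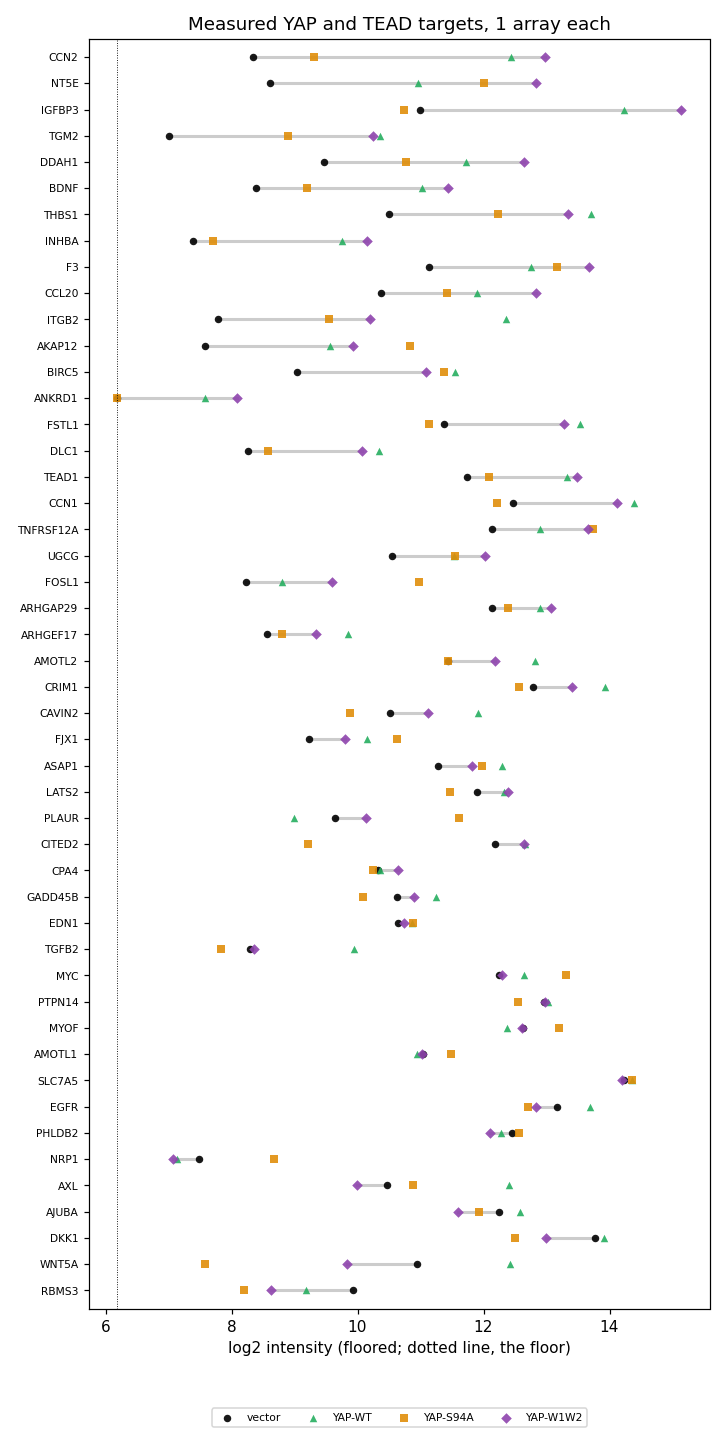
Floored log2 intensity of the 48 measured YAP and TEAD targets on the 4 arrays, 1 array each, ordered by the difference YAP-W1W2 minus vector; grey bars join vector to YAP-W1W2 and the dotted line is the floor. CCN2, NT5E and IGFBP3 head the order, YAP-S94A lies nearer to vector than to YAP-W1W2 for CCN2, IGFBP3 and INHBA but not for NT5E, and AXL and WNT5A are highest on YAP-WT.

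Components of the Hippo pathway and partners of the WW domains were mixed: 10 of 56 measured were higher, 2 were lower and the median was 0.01, whose sign turned negative under each other scaling tried. TEAD1, the TEAD factor itself, went from 3418 to 11483 by its brightest probe set, and its 3 probe sets stood at 1.32, 1.32 and 1.75 (log2). TEAD4 went from 310.1 to 1661 (2.42) and stood at 1.48 by its other probe set, whereas TEAD3 was at −0.41 and the brightest TEAD2 probe set at −0.25. WWTR1, which encodes the YAP paralog TAZ, had probe sets at −0.52, 0.49 and 1.33. The WW-domain scaffold WWC1 (KIBRA) was 3.47-fold higher, the RASSF tumour suppressors RASSF1 and RASSF5 2.96- and 2.49-fold, and WTIP, a LIM protein of the Ajuba family, at least 9.66-fold. Core kinases moved little: STK3 and STK4, which encode MST2 and MST1, stood at −0.69 and 0.40 (log2), LATS1 at −0.54, and the LATS-related STK38L was 2.21-fold lower. PRRG2, a PPxY-bearing membrane protein, was 2.05-fold lower.

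Genes for DNA replication were higher. Of 56 measured members 32 were higher and none lower (0 of 56), and the median was 1.33 (log2), beside 11.4% and 8.40% of all measured genes. Origin licensing and helicase genes led with 17 of 21 and a median of 2.08. CDC45, the helicase cofactor, read 101 in vector and 1152 in YAP-W1W2, with 676 on YAP-WT and 1403 on YAP-S94A. CDC6 and CDT1, which load the MCM helicase, went from 293 to 2721 and from 359 to 1872, each above its YAP-WT value of 1448 and 819. All 3 YAP arrays were above vector for each of these genes. The helicase subunits MCM2, MCM3, MCM5, MCM6 and MCM7 were 2.51- to 5.13-fold higher, and MCM4 stood at 0.53 (log2). ORC1 of the origin recognition complex was at least 5.74-fold higher. Among polymerase and fork genes 10 of 22 were higher, among them the primase partner POLA2 (6.12-fold), the flap nuclease FEN1 (3.40-fold) and the sliding clamp PCNA, which went from 2379 to 6266. In nucleotide supply 5 of 13 were higher; RRM2, the inducible subunit of ribonucleotide reductase, went from 1909.8 to 16347 and thymidylate synthase TYMS from 1827 to 7651.

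Mitotic genes were higher too. In this list 67 of 84 measured members were higher and none lower (0 of 84), and only WEE1, at −0.05 (log2) and with disagreeing probe sets, was below vector. The list's median was 1.63 in YAP-W1W2, 1.67 in YAP-WT and 1.87 in YAP-S94A. PLK1, the polo-like kinase of mitotic entry, read 516 in vector and 2842 in YAP-W1W2, with 2283 on YAP-WT and 3882 on YAP-S94A. CDK1, the master mitotic kinase, went from 1579 to 4991, with 5742 on YAP-WT and 6712 on YAP-S94A, and its cyclins CCNB1 and CCNB2 were 3.49- and 3.47-fold higher. Kinases and cyclins had 18 of 21 higher, kinetochore and centromere genes 24 of 28 and spindle, chromosome and exit genes 25 of 35. HJURP, the chaperone of the centromeric histone, went from 247 to 2066, the condensin subunit NCAPH from 132 to 1053, and the anaphase activator CDC20 from 1105 to 5988. FOXM1, a transcription factor of this programme, was 5.21-fold higher, MYBL2 (B-MYB) 5.59-fold and the proliferation antigen MKI67 3.65-fold. The kinase AURKA, by its brightest probe set, stood at 4.00-fold above vector but had probe sets in both directions.

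The promoters of CDC20 and CCNB2 are printed because they hold both elements of the cell-cycle promoter class: the CHR element TTTGAA and the CCAAT box CCAAT. These were searched on both strands in the 250 bases before the RefSeq start (GRCh38.p14; CDC20 at chr1:43358731-43358980, plus strand; CCNB2 at chr15:59104896-59105145, plus strand). Capitals mark the elements, none of which overlap here; TTCAAA is the CHR element on the other strand.
CDC20: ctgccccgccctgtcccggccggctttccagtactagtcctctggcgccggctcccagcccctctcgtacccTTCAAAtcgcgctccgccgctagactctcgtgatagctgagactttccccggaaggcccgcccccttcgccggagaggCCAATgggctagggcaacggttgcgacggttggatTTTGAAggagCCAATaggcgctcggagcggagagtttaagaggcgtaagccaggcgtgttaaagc
CCNB2: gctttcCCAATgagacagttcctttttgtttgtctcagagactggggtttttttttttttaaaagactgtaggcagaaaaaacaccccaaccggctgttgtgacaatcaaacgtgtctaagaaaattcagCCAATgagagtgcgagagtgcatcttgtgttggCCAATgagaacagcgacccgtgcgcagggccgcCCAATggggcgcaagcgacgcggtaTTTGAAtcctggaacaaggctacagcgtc
In CDC20 the sense CHR element begins 65 bases before the start and in CCNB2 29 bases before it. Among other genes named above, PLK1 also held both elements. CCNB1 held CCAAT 87 and 55 bases before its start but no CHR in the 250 bases. Of 70 measured mitosis genes with a promoter in the table, 30 held CHR (42.9%) and 24 held both elements (34.3%), against 8.86% and 3.51% of all measured genes and 13.6% and 4.85% of all promoters. CCAAT, with or without CHR, occurred in 49 of the 70 mitosis promoters and in 33.0% of all promoters. Of the 30 mitosis genes with CHR, 24 were higher and 6 neither, beside 67 of 84 higher (79.8%) in the whole measured list. CHR thus did not separate the mitosis genes that were higher from those that were not. Replication genes held CHR in 2 of 49 promoters. Of all higher genes with a promoter 11.3% held CHR, and of all lower genes 10.6%.

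Repair genes that act with replication moved in the same direction, with 20 of 29 measured higher and none lower (0 of 29) and a median of 1.30. RMI2, a subunit of the BLM complex, went from 87 to 724, the nuclease EXO1 from 274 to 1690.1, and BRCA1 from 182 to 797. Among Fanconi genes, the ubiquitin-conjugating enzyme UBE2T was 3.80-fold higher and FANCI 2.72-fold, and FANCE stood at −0.44 (log2).

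At the G1 checkpoint, cyclins and CDKs were higher and their inhibitors were not. Of 8 measured cyclins and CDKs 6 were higher: CCNE2 (4.31-fold), CDK6 (3.59-fold), CCND1 (3.42-fold), CDK2 (2.84-fold), CCNE1 (2.74-fold) and CCND3 (2.22-fold). Of 18 measured E2F and pocket protein genes 5 were higher (27.8%), 1 was lower (5.56%) and 12 were neither. E2F1, an activating E2F, read under the floor on the vector array and was at least 5.14-fold higher. The repressors E2F7 and E2F8 were 3.56-fold and at least 4.29-fold higher. RBL2, the pocket protein p130 of resting cells, read 1857 in vector and 503 in YAP-W1W2, with 1129.8 on YAP-WT and 752 on YAP-S94A. Of 5 measured CDK inhibitors, CDKN1C (p57) was 2.37-fold and CDKN1B (p27) 2.04-fold lower, and CDKN1A (p21) stood at −0.30 (log2).

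The array signals of replication-dependent histone genes went against those of the other S-phase genes. Of 17 measured, 8 were lower, 1 was higher and the median was −0.65, and 24 more were dim. H2AC6 went from 3663 to 784, H2AC25 from 2847 to 567 and H4C8 from 1209.9 to 189. Histone genes have near-identical copies that may share probe signal, so single members are uncertain. How fully the labelling and probes read histone transcripts was not tested, so these signals do not show how total histone RNA changed.

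FOXO targets and genes of resting cells were lower. FOXO factors are held out of the nucleus by AKT when growth factor is present and switch on genes of quiescence, catabolism and stress resistance when it is not. Of 35 measured members 22 were lower (62.9%) and none higher (0 of 35), against 8.40% and 11.4% of all measured genes; the median was −1.30 (log2) in YAP-W1W2, −0.70 in YAP-WT and −1.58 in YAP-S94A. PDK4, which diverts pyruvate from oxidation, read 1882 in vector, 257 in YAP-WT, and below the floor in both mutants, at least 25.8-fold lower in YAP-W1W2. FBXO32, the ubiquitin ligase atrogin-1, went from 2422 to 193. TSC22D3, the glucocorticoid-induced leucine zipper GILZ, went from 9764 to 954, with 5445 on YAP-WT and 1199 on YAP-S94A. For these 3 genes YAP-WT lay between vector and the mutants.

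Several members were among the brighter genes of the array. BTG1, an antiproliferative factor, went from 17347 to 3780, TXNIP, which restrains glucose uptake and thioredoxin, from 13724 to 4052, and the mTORC1 inhibitor DDIT4 from 13499.9 to 5034. PNRC1, a nuclear receptor coactivator, was 9.96-fold lower, the stress sensors SESN3 and SESN1 5.66- and 2.88-fold, the mitochondrial superoxide dismutase SOD2 5.42-fold and the clock gene PER2 4.41-fold. The genes for FOXO1 and FOXO3 themselves were 2.96- and 2.12-fold lower, and BCL6, a repressor under FOXO control, 2.97-fold. IRS1 was at least 6.94-fold lower, KLF9 7.08-fold and CCNG2 3.20-fold by their brightest probe sets, and each had probe sets in both directions. GADD45A, a growth arrest gene, stood highest at 0.74 (log2).

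**Figure D4:**
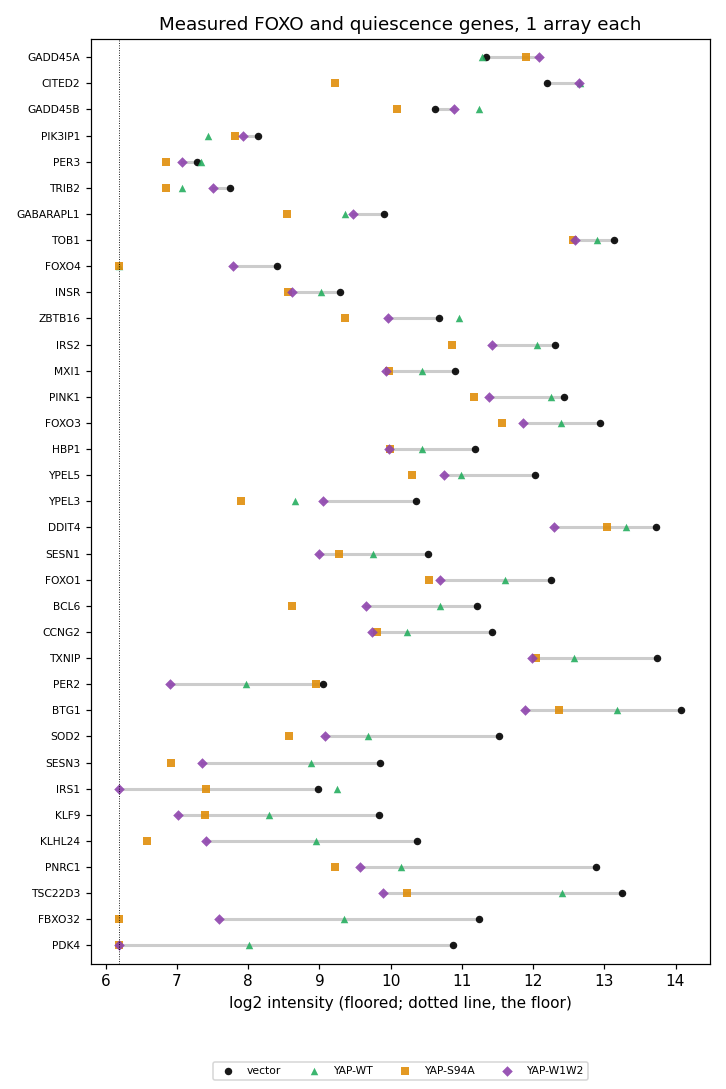
Floored log2 intensity of the 35 measured FOXO and quiescence genes on the 4 arrays, 1 array each, ordered by the difference YAP-W1W2 minus vector; grey bars join vector to YAP-W1W2 and the dotted line is the floor. Vector is above YAP-W1W2 for all but GADD45A, CITED2 and GADD45B, and YAP-WT often lies between the vector and mutant arrays.

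Targets of p53 had 6 of 20 measured lower and 2 higher. TP53INP1, which promotes autophagy and cell death, was 5.87-fold lower, the stress cytokine GDF15 4.13-fold, RRM2B 3.18-fold and DDB2, of nucleotide excision repair, 2.87-fold, whereas the quinone oxidoreductase TP53I3 was 2.33-fold higher. CDKN1A and MDM2 did not reach 2-fold. SESN1 stands in this list and in the FOXO list.

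Many keratinocyte differentiation genes were lower. Of 38 measured 19 were lower (50.0%) and 2 higher (5.26%), and 15 more were dim. The median was −0.98 (log2) in YAP-W1W2, −0.74 in YAP-WT and −0.19 in YAP-S94A. The cornified envelope precursor SPRR1B read 7996 in vector and 287 in YAP-W1W2, with 1169 on YAP-WT and 4024 on YAP-S94A. CSTA, the cysteine protease inhibitor of the envelope, went from 22999 to 2894, with 19972 on YAP-S94A, and SPRR1A from 2851 to 373. SPRR1A read 1765.5 on YAP-S94A. Thus these 3 genes were below vector on YAP-S94A too, but less so than on YAP-WT and YAP-W1W2. ABCA12, the lipid transporter of the skin barrier, went from 1038 to 108 and the water and glycerol channel AQP3 was at least 19.4-fold lower. CLCA2, a p53-inducible surface protein of stratified epithelium, went from 6565 to 135 and was 48.8-fold lower. Among transcription factors of the programme, EHF was 22.3-fold lower, GRHL3 2.42-fold, ELF3 2.29-fold and KLF4 2.07-fold. Transglutaminase 3 (TGM3) was at least 2.56-fold higher and dermokine (DMKN) 2.09-fold.

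Of the keratins, all 3 measured simple-epithelial members were higher; of 9 stratified members 2 were higher and 3 lower, and of 4 basal members 2 were lower. The simple-epithelial pair KRT8 and KRT18 went from 3845 to 16277 and from 5609 to 34605, above all other arrays, while the basal pair KRT5 and KRT14 stood at −0.02 and 0.29 (log2). KRT7 was 2.78-fold higher with probe sets in both directions, and KRT80 4.75-fold. The basal and stress keratins KRT15 and KRT16 were 5.06- and 5.36-fold lower, and the suprabasal KRT10 went from 21881 to 8215. KRT13, a keratin of mucosal epithelium, read 778 in vector, 138 in YAP-WT and 1730.5 in YAP-W1W2. In all 5 of 16 measured keratins were higher and 5 lower. Keratins are close in sequence, so members may share probe signal.

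Among S100 calcium-binding proteins 6 of 14 measured were lower and none higher (0 of 14). S100A8 of calprotectin went from 4633 to 107, its partner S100A9 from 709 to 100.3, and S100A7 (psoriasin) was at least 21.5-fold lower. S100A4, a metastasis-associated member, went from 8662 to 642, with 4792 on YAP-WT. The bright members S100A2, S100A6, S100A10 and S100A11 stood between 0.33 and 0.48 (log2), with probe sets in both directions for S100A6 and S100A10. Kallikrein proteases had 4 of 11 lower and 1 higher. Their median was 0.20 (log2), with 6 members above vector, and its sign depended on scaling. KLK7 went from 5350.1 to 498, KLK10 from 1987 to 199.7, and KLK5, which activates others in the skin, was 3.45-fold lower.

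Protease inhibitors split. CST6, cystatin M/E, read 282 in vector and 6325 in YAP-W1W2, which stood alone, with 717 on YAP-WT and 981 on YAP-S94A. SERPINE2 (protease nexin 1) went from 199.6 to 2068, the collagen chaperone SERPINH1 from 508 to 3231, and PI3 (elafin), an elastase inhibitor, from 2256 to 10494, with YAP-WT at 2344. SERPINB13 went from 3937 to 146 and SERPINB3 from 594 to 146. Counted together, 6 of 18 were higher and 5 lower.

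Genes of epithelial junctions and polarity were mixed, with 4 of 43 measured higher, 7 lower and a median of 0.15 whose sign depended on scaling. EPCAM, an epithelial adhesion molecule, went from 578 to 3440.4 and the trafficking GTPase RAB25 from 369.8 to 1249.6. Desmosomal genes were lower in 3 of 9: the desmoglein DSG3 went from 11952 to 1231, the desmocollin DSC2 from 5028 to 2185 and the plaque protein DSP from 20831 to 9273. E-cadherin, CDH1, stood at 0.51 (log2). Claudin 4 (CLDN4) was 3.17-fold lower at 82, close to the floor.

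Set against YAP-WT, 3.91% of measured genes were higher in YAP-W1W2 and 5.59% lower. In the junction list 8 of 43 were higher than in YAP-WT and 1 lower. ESRP1, the epithelial splicing regulator, read 1039 in vector and 1446 in YAP-W1W2, beside 288 on YAP-WT and 1526 on YAP-S94A, so the low value was that of YAP-WT. The YAP-WT array was also lowest for RAB25, for the polarity protein CRB3 and for the tight junction protein OCLN, whose probe sets lay in both directions relative to vector. Of YAP targets 2 of 48 were higher than in YAP-WT (NT5E and PLAUR) and 4 lower (WNT5A, AXL, ITGB2 and TGFB2, at −2.58, −2.41, −2.16 and −1.59 on the log2 scale). In the FOXO list 11 of 35 were lower than in YAP-WT and 1, FOXO4, higher.

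Mesenchymal genes did not move as a unit, with 7 of 26 higher and 4 lower. TAGLN, a smooth muscle actin-binding protein, went from 1913 to 11121, near the 11055 of YAP-S94A. N-cadherin, CDH2, went from 575 to 2029, the crosslinking lysyl oxidase LOX from 2695 to 8023 and fibronectin FN1 from 7419 to 16527; on YAP-S94A LOX read 671 and FN1 3483, both below vector. The transcription factors of the programme were not among the higher genes: ZEB2 was at least 6.28-fold lower, TCF4 6.13-fold lower, SNAI2 at −0.98 (log2) and ZEB1 at 0.29. VIM, vimentin, read 10191 in vector, 20225 in YAP-WT and 9832 in YAP-W1W2.

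Extracellular matrix genes had 23 of 72 measured higher and 10 lower, with a median of 0.49. Basement membrane collagen IV was higher, COL4A1 going from 930.5 to 5063 and COL4A2 from 1947 to 9823, as was the short-chain collagen COL8A1, from 578 to 3677. FBLN5, fibulin 5 of elastic fibres, was below the floor in vector and YAP-S94A and read 1976 in YAP-W1W2 and 839 in YAP-WT, at least 27.1-fold higher. ADAMTS1, a versican-cleaving protease, was 7.49-fold higher and LOXL2 2.27-fold. Lower members were led by DCN, the small proteoglycan decorin, which read 9344 in vector and 248 in YAP-W1W2, beside 3884 on YAP-WT and 288 on YAP-S94A. COL7A1, of anchoring fibrils, was at least 5.96-fold lower, LAMB1 3.77-fold, the metalloprotease MMP28 7.01-fold and the urokinase PLAU 3.84-fold. Among integrins 4 of 15 were higher and 1, ITGB8, lower (3.24-fold); ITGB5 was 3.11-fold higher with probe sets in both directions.

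Actin cytoskeleton genes and targets of SRF had 11 of 29 higher and none lower (0 of 29), with a median of 0.76. The tropomyosins TPM2 and TPM1 went from 3239 to 12742 and from 11744 to 27411, the focal adhesion protein ZYX from 1782 to 5189.8 and its LIM-domain relative FHL2 from 2564 to 6984. The calponins CNN3 and CNN2 were 3.32- and 2.21-fold higher. ACTB stood at 0.59 (log2), beside the actin control probe sets at 0.85, and SRF itself at −0.79 with disagreeing probe sets.

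Genes of the EGF family and of feedback on ERK signalling had 15 of 30 measured higher and 3 lower, with medians of 0.87 (log2) in YAP-W1W2, 0.49 in YAP-WT and 0.74 in YAP-S94A. EGF was in the medium of every culture; ERK phosphatases, Sprouty proteins and ETV factors are transcribed when ERK is active and restrain or relay it. DUSP4 and DUSP6, phosphatases of ERK, went from 392 to 2876 and from 120.5 to 688, SPRY4, a Sprouty, from 169 to 1024 and ETV5 from 279 to 2019.8. YAP-S94A was as high or higher for DUSP6 (1342) and SPRY4 (1084), and YAP-WT was in between for all 4 genes. HBEGF, a membrane-bound EGFR ligand, read 105 in vector and 628 in YAP-W1W2, beside 109.5 on YAP-WT and 802 on YAP-S94A, so only the mutants were high. TGFA showed the same order, at 680.5 in vector, 683 on YAP-WT, 1446 on YAP-W1W2 and 1911 on YAP-S94A. DUSP2 was at least 7.43-fold higher, SPRED1 4.50-fold, DUSP5 3.69-fold and the ephrin receptor EPHA2 2.79-fold. The negative regulator LRIG3 was 2.07-fold lower, SPRED3 2.04-fold and DUSP8 2.99-fold. SPRY1 and PHLDA1 were higher by their brightest probe sets but had probe sets in both directions.

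**Figure D5:**
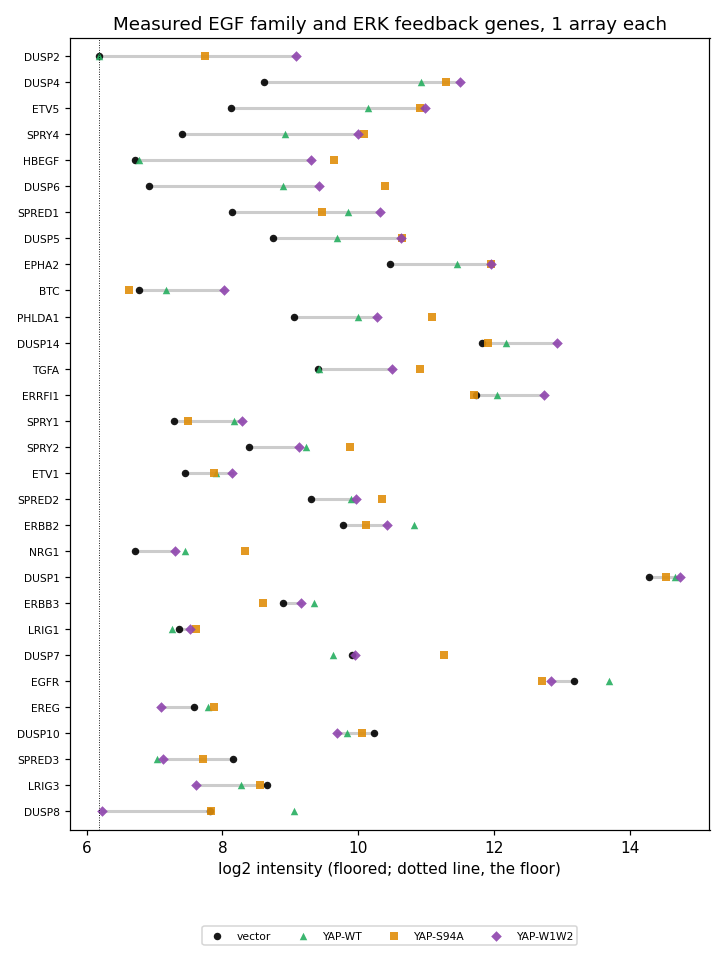
Floored log2 intensity of the 30 measured EGF family, ERBB receptor and ERK feedback genes on the 4 arrays, 1 array each, ordered by the difference YAP-W1W2 minus vector; grey bars join vector to YAP-W1W2 and the dotted line is the floor. The feedback genes DUSP4, ETV5, SPRY4 and DUSP6 are low in vector and high in both mutants, and HBEGF is low in vector and YAP-WT.

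Immediate early genes had 4 of 21 higher and 2 lower. IER3, an early response gene of survival, went from 1065 to 4633, IER2 from 2476 to 7004 and the zinc-finger factor EGR1 from 1447 to 5304, while the stress factor ATF3 was 2.23-fold lower. JUN, at 0.18 (log2), and MYC, at 0.04, differed little from vector.

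Inflammatory genes were lower in 18 of 38 measured members and higher in 4, and 17 listed genes were dim. The median was −0.92 (log2) in YAP-W1W2, −0.68 in YAP-WT and 0.01 in YAP-S94A. The neutrophil chemokine CXCL1 read 2137 in vector and 397 in YAP-W1W2, beside 349 on YAP-WT and 2842 on YAP-S94A. CXCL2 went from 567 to 164, beside 103 on YAP-WT and 842 on YAP-S94A. For these 2 genes the YAP-S94A array was above vector and the others below it. The cytokine IL1A went from 2356 to 483 and its antagonist IL1RN from 764 to 229.7. Complement C3 went from 12984 to 3826 and the NF-kB feedback inhibitor TNFAIP3 (A20) from 3269 to 1041, while the NF-kB subunits RELA and NFKB1 stood at 0.26 and 0.27 (log2). The decoy receptor IL1R2 was 4.03-fold higher and LIF, of the IL-6 family, 2.84-fold. SOD2 and CCL20, described above, belong to this list too.

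PTGS2, which encodes cyclooxygenase 2, read 181 in vector and 4991 in YAP-W1W2, 27.6-fold above vector, beside 1172 on YAP-WT and 728 on YAP-S94A. The enzyme that inactivates prostaglandins, HPGD, was below the floor on YAP-W1W2 and at least 6.83-fold lower, and the prostaglandin F synthase AKR1C3 went from 2418 to 201. AKR1C1 and AKR1C2, close copies that may share signal, were 2.18- and 3.50-fold lower. Of 18 measured genes in the prostaglandin list 2 were higher and 5 lower. Interferon-stimulated genes had 1 of 41 higher and 5 lower and a median of −0.05; IFI44 was 4.02-fold and IFI27 3.65-fold lower, and ISG15 stood at −0.04 (log2).

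In the TGF-beta and BMP pathway 8 of 38 were higher (21.1%) and 4 lower (10.5%), against 11.4% and 8.40% of all measured genes. The receptor TGFBR2 went from 6005 to 13974, the inhibitor of differentiation ID1 from 8509 to 25413 and the activin antagonist FSTL3 from 1888 to 6322, whereas the ligands BMP2 and TGFB1 were 5.82- and 2.60-fold lower. Wnt pathway genes had 7 of 25 higher (28%) and 2 lower (8%). The receptors FZD7 and FZD5 were 3.62- and 3.52-fold higher, the antagonist SFRP1 2.61-fold, and FZD2 3.33-fold lower. Notch pathway genes had 4 of 18 lower and none higher (0 of 18). NOTCH1 was 2.60-fold lower, NOTCH3 2.65-fold, the target HES1 3.63-fold and the Notch-modifying LFNG at least 4.91-fold. Of guidance genes 6 of 38 were higher (15.8%) and 8 lower (21.1%). The secreted SLIT2 went from 181 to 1517 and SLIT3 from 84 to 369, while their receptor ROBO1 was 2.62-fold lower and the ephrin EFNA1 3.47-fold.

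Genes of retinoid metabolism and of the aryl hydrocarbon receptor had 4 of 24 higher and 7 lower. CYP1B1, a classical target of that receptor, went from 5161 to 188, with 173 on YAP-S94A, and ALDH3A1 from 1963 to 75, near the floor; AHR itself stood at −0.82 (log2). ALDH1A3, which makes retinoic acid, read 2296 in vector, 630.5 in YAP-WT and 5359 in YAP-W1W2. Of IGF-binding and related genes 2 of 7 were higher and 1, the receptor IGF1R, 2.96-fold lower. In the BCL2 family 2 of 15 measured were higher (13.3%), 3 lower (20%) and 10 neither, with a median of −0.03 (log2). The survival gene BCL2L1 (BCL-XL) went from 1120.5 to 3191. The death genes BCL2L11 (BIM), BIK and BMF were 2.65-fold, 3.40-fold and at least 3.23-fold lower. BAK1, also pro-death, was 2.01-fold higher.

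Metabolic lists moved less. Cholesterol and fatty acid synthesis genes had 2 of 27 higher and 1 lower with a median of −0.09, beside 0.75 in YAP-WT. Of the 27, 7 were at least 2-fold lower than in YAP-WT, against 5.59% of all measured genes. LSS, lanosterol synthase, read 4073 in vector, 6988 in YAP-WT and 2294 in YAP-W1W2, and MVD, of the mevalonate pathway, 466, 1263 and 332. INSIG1, the sterol-regulated brake on this pathway, read 2467, 3112 and 992. Glycolysis and hypoxia genes had 3 of 36 higher (8.33%) and 4 lower (11.1%), near the 11.4% and 8.40% of all measured genes. The angiopoietin-like ANGPTL4 was 3.45-fold higher and the carbonic anhydrase CA12 5.72-fold lower. The ATF4 and amino acid list had 6 of 35 higher and 5 lower, with the cystine carrier SLC7A11 at 2.61-fold higher. In the unfolded protein response 6 of 20 were higher and none lower (0 of 20), led by the chaperones HYOU1 (2.90-fold), SDF2L1 (2.63-fold) and calreticulin CALR (2.21-fold). The chaperone HSPA5 (BiP) stood at 2.01-fold, and this count depended on the scaling.

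Housekeeping machinery was close to vector. Cytosolic ribosomal proteins had 0 of 57 higher and 1 lower, mitochondrial ribosomal proteins 2 of 76 higher and 0 lower, and the respiratory chain 0 of 71 higher and 1 lower. Nucleolar ribosome biogenesis genes had 3 of 43 higher (BYSL, LYAR and MRTO4, 2.16- to 2.26-fold) and 0 lower. Glucocorticoid-responsive genes, relevant because the medium held hydrocortisone, had 8 of 27 higher and 7 lower: the kinase SGK1 went from 4619 to 18231, while TSC22D3, KLF9 and MAOA were lower, FKBP5 stood at −0.26 (log2) and the receptor NR3C1 at −0.46.

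The labelled cell type was checked against its markers. Basal mammary markers KRT5, KRT14, CAV1, ITGA6 and EGFR were bright on both arrays, and 1 of 8 measured basal markers was higher (LAMB3) and 1 lower (DSG3); TP63, KRT17 and LAMA3 were among the markers not analysed here. The summed intensity of these 8 markers was 130904 in vector and 133931 in YAP-W1W2. Of 7 measured luminal markers 2 were higher (KRT8 and KRT18) and 2 lower (ELF3 and CLDN4). Sums over the 11 with a probe set, 4 of them dim, were 20516.5 in vector and 62891.6 in YAP-W1W2. Fibroblast markers had 5 of 10 measured. The surface protease FAP (3.03-fold) and COL1A2 (2.34-fold) were higher, DCN was lower, and COL1A1 and THY1 were neither. The other 5, LUM, COL3A1, PDGFRA, PDGFRB and DPT, were dim. Sums over all 10 were 11620.9 in vector and 5581.7 in YAP-W1W2. Of immune markers 3 were measured, with CD14 at least 4.28-fold lower, and of endothelial markers only PECAM1, at 0.29 (log2). Fewer cells with a transcript and less of it per cell cannot be told apart in these bulk arrays.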

How the data were processed

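Per the labels' protocols, Trizol was used to extract total RNA, which was biotin-labelled and measured on 4 Affymetrix arrays, of which the vector and YAP-W1W2 arrays were compared. The deposited values are linear intensities; the submitters' processing notes name GCOS, with its version and scaling not given in the sources used here. The table held 54675 probe sets, and 62 controls were kept apart. Of the rest, 41091 had 1 gene symbol in the platform's annotation, 1801 several and 11721 none; 41037 were found in the RefSeq table by Entrez identifier and 0 symbols changed. The 2% trimmed means of the arrays differed by at most 1.10-fold, so intensities were used as deposited, floored and put on a log2 scale. Probe sets can disagree, and such genes are marked. Promoters are those of RefSeq on GRCh38.p14; 27305 were searched.

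Genes named were the 30 highest and 30 lowest with at least 2 agreeing probe sets, the 15 highest and 15 lowest with 1 array at the floor, measured members of 45 gene lists, YAP1 and WWTR1. The members and lists were chosen with earlier results of these data known. With 1 array per group no test or standard error was computed, and the number of arrays limits the precision. The counting and 9 alternative settings were run on simulated data, with changes larger than 2-fold planted in brighter genes. That run checked the code, and did not check calls near 2-fold or near the floor. Python 3.11.15, NumPy 2.4.6, pandas 2.3.3 and statsmodels 0.14.6 were used.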

Additional observations from a re-analysis of the deposited data

How the results depend on the processing

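No paired analysis was possible because each group had 1 array. Counts of higher and lower genes stayed within 1.5 times of 1460 and 1072 under all 9 alternatives, from 1071 to 1674 higher and from 785 to 1301 lower; the offset in place of the floor gave the lowest counts, and no filter on dim genes the highest count of higher genes. For the lists with at least 5 members changed one way, the count of leading members moved by over 1.5 times in 16 cases. The unfolded protein response went from 6 higher to 3 after median centring, 3 after quantile normalisation, 2 after intensity-dependent centring and 2 with the mean over probe sets; the cause was not tested. The Wnt pathway went from 7 higher to 4 with the offset. With probe sets lacking the _s_at, _x_at or _a_at suffix only, 9619 genes were measured in place of 12759, so fewer members were counted: 13 repair, 4 mesenchymal, 5 actin and SRF, 5 TGF-beta, 2 Wnt, 1 unfolded protein response and 2 glucocorticoid genes were higher, and 12 FOXO, 9 inflammatory, 1 prostaglandin and 4 histone genes lower. The single genes were followed through 323 measured symbols found in the text, which include F12 (from the medium's name) and MST1 (here a protein name). With those probe sets 227 symbols kept their call, 5 lost it, 2 gained one and AURKA alone reversed, to −0.43 (log2). The remaining symbols had no value under that setting and could not be judged there. At most 19 of the 323 lost the 2-fold call under 1 setting, the mean over probe sets. The medians of the Hippo, kallikrein, junction, mesenchymal, TGF-beta, glycolysis, ATF4 and cytosolic ribosomal lists changed sign with the scaling.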

Other observations

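The pregnancy-specific glycoproteins, a family of secreted immunoglobulin-like proteins known from the placenta, were higher in YAP-W1W2 in a block. They were named after their values were seen. Of 9 PSG genes with a probe set 8 were measured and all 8 were higher, by 2.38- to 4.94-fold, with a median of 1.86 (log2) beside 1.52 in YAP-WT and −0.02 in YAP-S94A. PSG4 read 933 in vector and 3627.5 in YAP-W1W2, and PSG1 went from 337 to 1665. PSG3 was below the floor in vector, so its fold is a lower bound. PSG6 had probe sets in both directions. The PSG copies are close in sequence and may share probe signal, so they do not count as 8 independent genes. With CEACAM1, they formed a run of 9 neighbours among measured genes on chromosome 19.

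Other runs of neighbouring genes that changed the same way were found by RefSeq order among 12745 placed genes, and also named after their values were seen. Counting the PSG run, there were 44 runs of at least 3 genes, the others being 22 runs of 3 and 3 runs of 4 higher genes and 16 runs of 3 and 2 runs of 4 lower genes. How many such runs a random order would give, with 11.4% of measured genes higher and 8.40% lower, was not computed. The lower runs took in S100A9, S100A8, S100A7A and S100A7 on chromosome 1, IL1A, IL1B and IL37 on chromosome 2 and AKR1C1, AKR1C2 and AKR1C3 on chromosome 10. The higher runs took in KCNS1, WFDC5, WFDC12 and PI3 on chromosome 20 and the metallothioneins MT1F, MT1G, MT1H and MT1X on chromosome 16. Other runs were not of 1 gene family, such as CHD7, ASPH and GGH (higher) and CBLB, DUBR and BBX (lower). Metallothioneins bind zinc and copper; 5 of 6 measured were higher, the family lay between 0.89 and 1.55 (log2) with a median of 1.32, beside 0.58 in YAP-WT and 1.13 in YAP-S94A, and all 6 were among bright probe sets. Their copies may share signal too.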
